A study of Mus musculus with 2 samples.

Results

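The 10 genes described here are known for the enzymes, channels and secreted proteins of differentiating and mature oligodendrocytes, the cells that wrap axons of the central nervous system in myelin. They were chosen by name as Enpp6, Ugt8a, Aspa, Fa2h, Gjb1, Trf, Gsn, Tspan2, Plekhh1 and Klk6, out of 15737 named genes measured on both arrays. All 10 were found through the RefSeq accession of their probes. They were read by 14 probes, 4 genes by 2 probes and 6 by 1, and each probe was well above background in both genotypes.

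The RNA came from male mice on a C57Bl/6 N background at 12 weeks of age. The first group was Il18-/-, lacking the cytokine interleukin-18, and the other was Il18+/+, its wild-type counterpart. RNA of 7 mice was pooled per genotype and hybridised to 1 one-colour Agilent array per pool, so each genotype had 1 sample. The labels give the tissue as hippocampus, whereas the extraction protocol speaks of prefrontal cortex. A level here is the log2 signal of a gene minus the 75th percentile of its array, and a difference is Il18-/- minus Il18+/+ on that log2 scale. With 1 pool per genotype differences have no replicate check and could not be tested, and having only 1 array each limits the precision.

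Oligodendrocytes arise from precursor cells, pass through a short premyelinating stage and then make myelin, a membrane rich in galactolipids. Galactosylceramide is built by the ceramide galactosyltransferase that Ugt8a encodes, in part on fatty acids hydroxylated by the product of Fa2h. Mature oligodendrocytes also break down N-acetylaspartate from neurons, store and bind iron, and are coupled to each other and to astrocytes by connexin channels.

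Of the 10 genes 9 were lower and 1 was higher in Il18-/-, whereas 47.4% of all measured genes were lower and 52.6% higher. Klk6 and Enpp6 were lower by at least 2-fold, against 0.451% of all measured genes, and these were also the only members past 1.5-fold, a size that 2.57% of all genes reached in this direction. Gsn, Trf, Ugt8a, Gjb1, Tspan2 and Fa2h lay between -0.44 and -0.30, Plekhh1 was at -0.15 and Aspa at 0.01. No member was at least 1.5-fold higher, against 1.68% of all genes. The median difference of the 10 genes was -0.39, and that of all measured genes was 0.01. Without Enpp6 and Klk6 the median of the other 8 was -0.35. In bulk tissue, fewer cells of a type and less RNA per cell cannot be told apart.

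**Figure D1:**
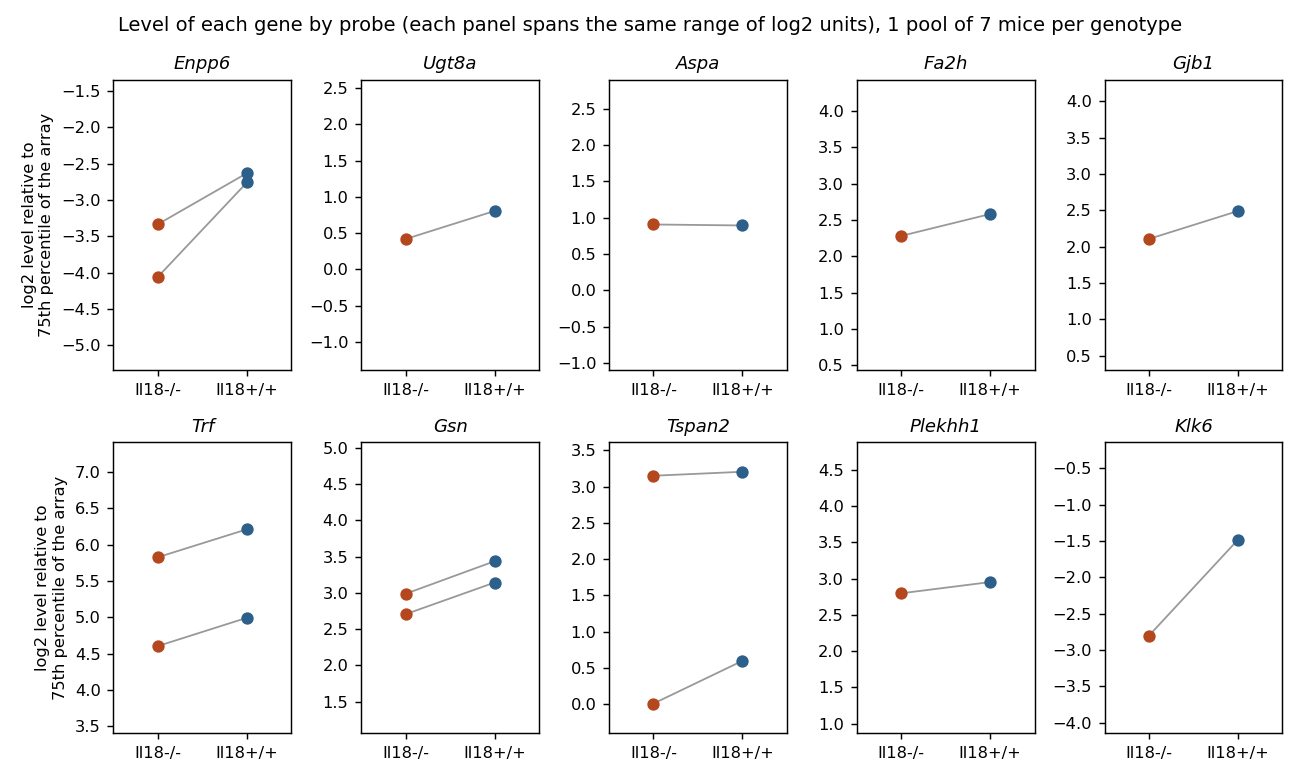
Level of each gene in the Il18-/- pool (left in each panel) and in the Il18+/+ pool (right), as log2 signal relative to the 75th percentile of the array; each joined pair of points is 1 probe and every panel spans the same number of log2 units. The steepest pairs are those of Klk6 and of 1 Enpp6 probe, and the Aspa pair is level.

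Technical error within the arrays was taken from 3 sources. Over 193 probes with 10 spots the standard deviation of the difference had a median of 0.07, which was 0.18 for those at levels under -2, 0.09 between -2 and 0, 0.06 between 0 and 2, and 0.05 above 2. The error that the scanner software gives for each spot amounted to 0.20 for the difference of most member probes and up to 0.24 for the dimmer Enpp6 probe. For bright probes it was nearly a fixed share of the intensity, in Il18-/- 94.6 of 945.4 for Ugt8a and 4011 of 40112 for 1 Trf probe. It is thus a value set by the software and not a spread seen between spots. Over 4123 genes with several probes the standard deviation between them had a median of 0.12 and a 95th percentile of 0.46. None of these covers differences between animals or pools.

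The regions before the transcription starts of the genes that differed most and of the one that differed least are shown so that they can be read beside each other. The sequences are the 250 bases upstream of each start in RefSeq (GRCm38.p6), 5′ to 3′ on the strand of the gene. Capitals mark ACAAT and ACAAAG, letters bound by SOX-type factors such as SOX10, a regulator of oligodendrocyte differentiation, on either strand.
Enpp6, chr8:46986637-46986886, + strand: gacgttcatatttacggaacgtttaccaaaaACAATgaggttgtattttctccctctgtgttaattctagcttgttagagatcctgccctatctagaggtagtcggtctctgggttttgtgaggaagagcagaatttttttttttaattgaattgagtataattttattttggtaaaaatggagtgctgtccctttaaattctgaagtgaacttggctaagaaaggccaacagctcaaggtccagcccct
Klk6 first start, chr7:43824294-43824543, + strand: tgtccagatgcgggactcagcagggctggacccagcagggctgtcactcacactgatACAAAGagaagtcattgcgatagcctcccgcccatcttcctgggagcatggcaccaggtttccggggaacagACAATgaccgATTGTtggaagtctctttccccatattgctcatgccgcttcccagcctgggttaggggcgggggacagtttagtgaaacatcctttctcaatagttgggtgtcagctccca
Klk6 second start, chr7:43825200-43825449, + strand: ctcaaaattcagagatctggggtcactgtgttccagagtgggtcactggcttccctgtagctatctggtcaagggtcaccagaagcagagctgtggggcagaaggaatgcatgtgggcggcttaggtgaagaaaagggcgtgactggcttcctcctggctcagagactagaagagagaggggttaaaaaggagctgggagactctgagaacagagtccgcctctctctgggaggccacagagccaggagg
Aspa, chr11:73324638-73324887, - strand: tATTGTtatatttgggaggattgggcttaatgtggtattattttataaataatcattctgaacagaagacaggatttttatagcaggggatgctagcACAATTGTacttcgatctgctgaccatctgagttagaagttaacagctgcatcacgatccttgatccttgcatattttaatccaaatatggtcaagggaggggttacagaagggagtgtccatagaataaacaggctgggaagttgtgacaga
Enpp6 had 1 ACAAT. The first Klk6 window had 2 ACAAT and 1 ACAAAG, and the second Klk6 window had neither. Aspa had 3 ACAAT, a pair of which overlap on opposite strands. Over 32851 such windows of the mouse genome, 27.7% held ACAAT, 16.5% held ACAAAG and 38.8% held at least 1 of them. RefSeq windows were at hand for 8 of the 10 genes, 15 windows in all, of which 7 held at least 1 of these runs of letters. These matches describe the letters of the windows and not binding.

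Klk6 encodes a secreted serine protease (kallikrein-related peptidase 6) abundant in mature oligodendrocytes. Its single probe had a processed intensity of 101.4 in Il18-/- and 247.8 in Il18+/+. On the scale relative to the 75th percentile the level was -2.80 in Il18-/- and -1.48 in Il18+/+, a difference of -1.32 or 2.50-fold lower. This difference was 22nd from the lowest of all measured genes. The signal is close enough to the local background that its treatment matters. The difference was -0.77 with normexp background correction of the median pixel signal. That setting adds 50 to every corrected signal, which by itself shrinks the differences of dim probes. None of the 18 nearest spots on the glass read at least 2-fold lower, and their median difference was 0.04.

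The 6 other measured kallikrein genes did not differ in 1 direction. Klk11 was lower by more than 1.5-fold, at -0.87, with dim levels of -5.13 in Il18-/- and -4.26 in Il18+/+. Klk8, which encodes neuropsin, a protease of hippocampal neurons, was higher at 0.34, and Klk9 was at 0.43. Klk4 was at -0.20. The 7 measured kallikreins, Klk6 included, had a median of -0.15, with 5 lower and 2 higher, and 5 listed genes were not well above background on both arrays.

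Enpp6 encodes a choline-specific glycerophosphodiester phosphodiesterase and is a marker of newly formed oligodendrocytes. One probe had an intensity of 42.4 in Il18-/- and 102.2 in Il18+/+, and the other had 70.1 in Il18-/- and 111.7 in Il18+/+. Both probes were thus lower in Il18-/-, by 2.46-fold and by 1.63-fold. The mean level was -3.70 in Il18-/- and -2.70 in Il18+/+, a difference of -1.001, just past 2-fold. The probes gave differences of -1.30 and -0.70, a gap of 0.60 that exceeds the spread of repeated spots at this level. Beside the second probe, 3 of the 18 nearest spots read at least 2-fold lower, none of them well above background in both genotypes, and beside the first probe none did. The part of neighbouring spots in the second value was not tested. With normexp background correction, which adds 50 to every corrected signal, the difference was -0.51. With the brighter probe alone it was -0.70.

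Other genes of choline phospholipid turnover were mixed. Of the 10 measured genes beside Enpp6, 7 were lower and 3 higher, with a median of -0.13, and 2 were at least 1.5-fold lower and none that much higher. Enpp2, which encodes autotaxin, a secreted enzyme that makes lysophosphatidic acid, was at -1.02 with levels of 5.58 in Il18-/- and 6.60 in Il18+/+. Enpp2 is made by oligodendrocytes and in large amount by the choroid plexus, and all 15 choroid plexus markers, of which Enpp2 is one, were lower. Pla2g4a, a cytosolic phospholipase gene, was at -0.67, and Gpcpd1, another glycerophosphodiesterase gene, at -0.35. Slc44a1, a choline transporter gene, was at -0.27 as the mean of 3 probes that were all lower.

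The remaining genes of the newly formed stage did not share the Enpp6 difference. Over the 12 measured genes of that list beside Enpp6, 6 were lower and 6 higher, with a median of 0.01. Bcas1, which marks early myelinating cells, was at 0.23 and Fyn, a kinase gene of myelination, at 0.22. Tcf7l2, a transcription factor gene, was at -0.36 with all 3 probes lower, and the noncoding RNA 9630013A20Rik was at -0.52. Enpp6 was the only gene of this list past 1.5-fold.

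**Figure D2:**
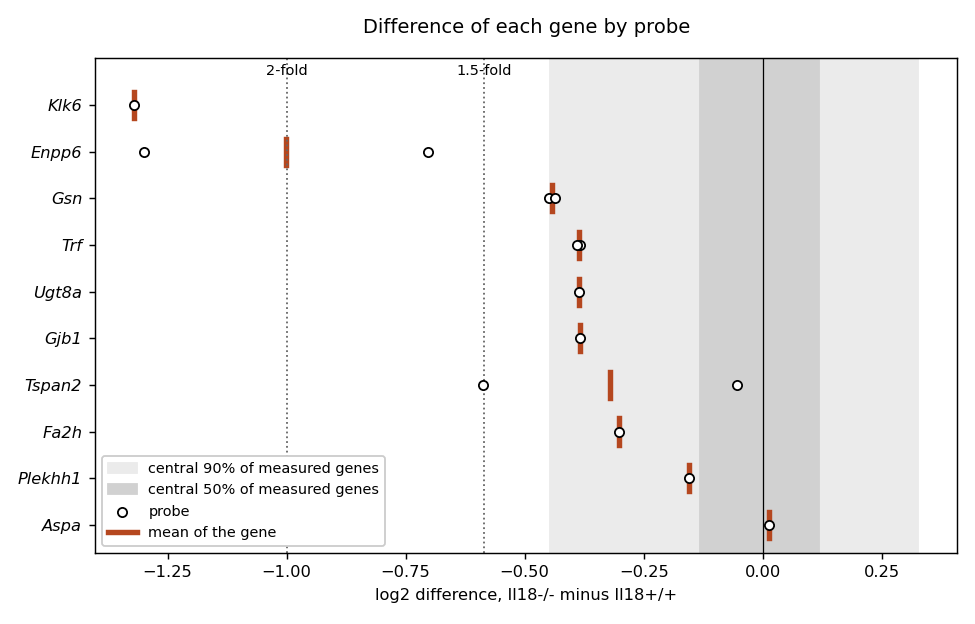
Log2 difference (Il18-/- minus Il18+/+) of each gene, ordered by size; open points are probes, bars the mean of the gene, and grey bands span the 5th to 95th and the 25th to 75th percentiles of all 15737 measured genes. Klk6 and Enpp6 lie outside both bands, Gsn lies near the edge of the wider band at -0.44, and Aspa lies in the inner band.

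The enzyme genes of galactolipid synthesis were both lower by a similar amount. Ugt8a had an intensity of 945.4 in Il18-/- and 1210 in Il18+/+. Its level was 0.42 in Il18-/- and 0.81 in Il18+/+, a difference of -0.39 or 1.31-fold lower. Fa2h had an intensity of 3433 in Il18-/- and 4141 in Il18+/+. Its level was 2.28 in Il18-/- and 2.58 in Il18+/+, a difference of -0.30. Counted from the lowest of all measured genes, Ugt8a was 1051st and Fa2h 1588th. Both differences exceed the spread of repeated spots at their levels and the scanner error of 0.20. On the median pixel signal that of Fa2h was -0.17, smaller than this error. Each of the 2 genes was read by 1 probe, so a spread between probes is not available for them. For genes with several probes that spread had a 95th percentile of 0.46, larger than either difference.

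Further genes of the same lipid pathway were split. The list of galactolipid and very-long-chain sphingolipid metabolism had 16 measured genes, Ugt8a and Fa2h included, of which 9 were lower and 7 higher, with a median of -0.03. Over the other 14 genes 7 were lower and 7 higher, with a median of 0.00. Beside Ugt8a and Fa2h, the lower ones included Elovl7 at -0.47 and Elovl1 at -0.28, which encode fatty acid elongases. Gal3st1, whose product turns galactosylceramide into sulfatide, was at -0.21, and Cers2, a ceramide synthase gene for very long chains, was at -0.18. The other genes of sphingolipid synthesis in the list went either way, from -0.08 to 0.15. Genes of breakdown were mixed as well. Galc, which encodes galactosylceramidase, was at -0.02, Arsa, which encodes arylsulfatase A, was at 0.12, and Psap, which encodes the saposin precursor, was at 0.68. Psap was the 1 gene of the list past 1.5-fold, read by a single probe.

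Aspa, which encodes aspartoacylase, the enzyme that splits N-acetylaspartate into acetate and aspartate, was the member that was not lower. Its single probe had an intensity of 1324.5 in Il18-/- and 1284.5 in Il18+/+, with levels of 0.91 in Il18-/- and 0.89 in Il18+/+. The difference of 0.01 is within the spread of repeated spots. On the median pixel signal, 1017 in Il18-/- and 1154 in Il18+/+, the difference was -0.21. Its sign therefore depends on the signal used for the spot, and it also turned under quantile and loess normalization, at -0.01 each. The N-acetylaspartate list had 9 measured genes, Aspa included, 3 lower and 6 higher, with a median of 0.01. Nat8l, whose product makes N-acetylaspartate in neurons, was at 0.08, Acss2, an acetyl-CoA synthetase gene, at -0.12, and Rimklb at -0.11 with probes from -0.55 to 0.18. Folh1, which encodes an enzyme that cleaves N-acetylaspartylglutamate, was at -0.48.

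Gjb1 encodes Cx32, a connexin and gap junction protein of oligodendrocytes. Its probe had an intensity of 3042 in Il18-/- and 3886 in Il18+/+, with levels of 2.11 in Il18-/- and 2.49 in Il18+/+. The difference was -0.38, or 1.31-fold lower. Liver cells make Cx32 too, and liver markers were mostly higher in Il18-/-, the part of which in this value was not tested. Gjc3, another connexin gene of oligodendrocytes, was at -0.17. The astrocyte connexin genes Gja1 and Gjb6 were at 0.16 and -0.05. Over the 6 connexins, Gjb1 included, 5 were lower and none passed 1.5-fold.

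Tspan2 encodes a tetraspanin, a membrane protein of oligodendrocytes, and its probes did not give the same difference. The brighter probe had an intensity of 6269 in Il18-/- and 6374 in Il18+/+, a difference of -0.05. Its 18 nearest spots had a median difference of -0.14. Of these, 4 read at least 2-fold lower, none well above background in both genotypes. The other probe had 712.4 in Il18-/- and 1049 in Il18+/+, a difference of -0.59, and its 18 nearest spots had a median of 0.05. The mean level was 1.58 in Il18-/- and 1.90 in Il18+/+, a difference of -0.32. The gap of 0.53 between the probes is larger than the difference itself, so the size for Tspan2 is uncertain and would be -0.05 on the brighter probe alone. Among 12 measured tetraspanin genes, Tspan2 included, 5 were lower and 7 higher, with a median of 0.04. Cd82 was at -0.48 over 3 probes that were all lower, Tspan3 at 0.19 and Tspan5 at 0.15.

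Trf encodes transferrin, the iron carrier that oligodendrocytes, the choroid plexus and the liver make. One probe had an intensity of 40112 in Il18-/- and 51249 in Il18+/+, and the other had 17180 in Il18-/- and 22028 in Il18+/+. Their differences were -0.38 and -0.39, so the probes gave the same value within the spread of repeated spots. The 18 nearest spots had median differences of -0.10 and -0.11, and the part of neighbouring spots in these values was not tested. The mean level was 5.21 in Il18-/- and 5.60 in Il18+/+, or 1.31-fold lower. Trf therefore differed by about the same amount as Ugt8a and Gjb1.

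Markers of the other sources of Trf differed in opposite directions. All 15 choroid plexus markers were measured and all were at least 1.5-fold lower, with a median of -1.18 and a summed level of 7.61 in Il18-/- and 8.60 in Il18+/+. Of 13 measured liver markers 11 were at least 2-fold higher and 2 were lower, with a median of 2.35. Without Ttr, which marks choroid plexus as well, a choice made after the values were seen, the summed level of the liver markers was 3.21 in Il18-/- and 0.99 in Il18+/+. Their part in the Trf difference was not tested. Among 12 measured genes of iron handling, Trf included, 9 were lower and 3 higher with a median of -0.05. Ireb2, which encodes iron regulatory protein 2, was at -0.45, Hfe at -0.23 and Cp, the ceruloplasmin gene, at -0.22. Tfrc, the transferrin receptor gene, was at 0.16 with probes from -0.10 to 0.41.

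Gsn encodes gelsolin, a protein that severs and caps actin filaments. One probe had an intensity of 5608 in Il18-/- and 7491 in Il18+/+, and the other had 4616 in Il18-/- and 6111 in Il18+/+. Their differences were -0.45 and -0.44. The mean level was 2.85 in Il18-/- and 3.29 in Il18+/+, a difference of -0.44 or 1.36-fold lower, and 5.14% of all measured genes had a lower difference. Beside the first probe 4 of the 18 nearest spots read at least 2-fold higher, 1 of them well above background in both genotypes. Gelsolin is also made by cells of the meninges and vessel walls, and of 12 such markers 10 were lower, 3 of them by at least 1.5-fold. That list had a median of -0.30 and a summed level of 4.52 in Il18-/- and 4.91 in Il18+/+, and its part in the Gsn difference was not tested. Of 9 measured actin severing and capping genes, Gsn included, 5 were lower and none passed 1.5-fold, with a median of -0.12. Capg was at -0.29, Scin at -0.19, Dstn, a depolymerising factor gene, at 0.17 and Vil1 at 0.13.

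Plekhh1 encodes a protein with pleckstrin homology, MyTH4 and FERM domains and is expressed in oligodendrocytes. Its probe had an intensity of 4913 in Il18-/- and 5354 in Il18+/+. The level was 2.80 in Il18-/- and 2.95 in Il18+/+, a difference of -0.15 that 22.1% of all genes exceeded in the lower direction. It is larger than the spread of repeated spots at this level but smaller than the scanner error of 0.20. Of 6 measured genes with at least 1 of these domain types, Plekhh1 included, 5 were lower with a median of -0.18. Myo10 was at -0.48, Myo7a at -0.45, Plekhh3 at 0.20, Myo15 at -0.19 and Plekhb1, known from white matter, at -0.17.

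**Figure D3:**
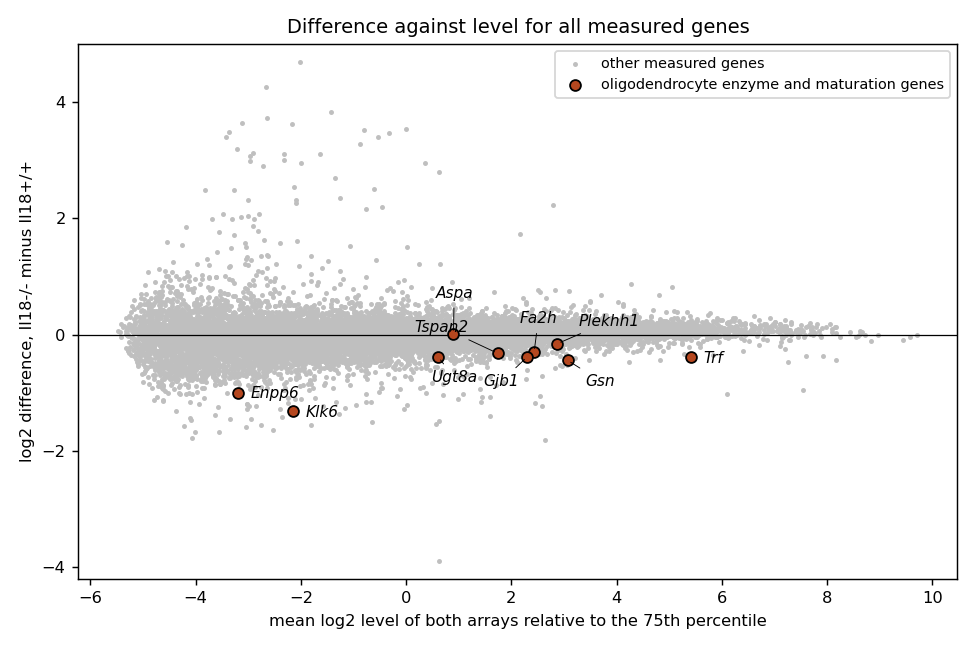
Log2 difference (Il18-/- minus Il18+/+) against the mean log2 level of both arrays for all 15737 measured genes (grey) and the 10 oligodendrocyte genes (orange). Enpp6 and Klk6 lie among dim genes, where the grey cloud is wider, and Trf at -0.39 lies at the lower edge of the cloud among bright genes.

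The wider oligodendrocyte lists are named by stage but share some genes. The mature oligodendrocyte list, 3 of whose genes are among the 10, had 20 measured genes, 17 lower and 3 higher, with a median of -0.26. Over the other 17 genes 14 were lower (3 at 1.5-fold or more) and the median was -0.23. Cryab, a small heat shock protein gene, was at -1.22 with both probes lower, and it neighbours Il18 on chromosome 9. Anln, an actin-binding protein gene, was at -0.87, Hapln2, a gene for an extracellular link protein at nodes of Ranvier, at -0.84, and Car14, a carbonic anhydrase gene, at -0.56.

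The myelin structural genes were lower by less. Of 13 measured genes 9 were lower and 4 higher, none past 1.5-fold, with a median of -0.18. Mobp was at -0.50 with all 3 probes lower, and Mbp at -0.28 with probes from -0.65 to 0.18. Cnp, which encodes a myelin phosphodiesterase, was at -0.18, and Opalin, a late oligodendrocyte membrane protein gene, was at 0.49 by 1 probe. No test of the gap between this median and that of the 10 genes could be made, since each genotype had 1 pool.

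Precursor and regulator genes lay near 0. The 10 measured oligodendrocyte precursor genes were 5 lower and 5 higher with a median of 0.00. Pdgfra, the growth factor receptor gene that marks precursors, was at 0.11, Cspg4 at 0.10, Tnr at -0.37 and Cacng4 at -0.27. Of 13 oligodendrocyte transcription factor genes 10 were higher and 3 lower, none past 1.5-fold, with a median of 0.07. Tcf7l2, at -0.36 with all 3 probes lower, had the largest difference of this list. Sox10 was at -0.11, Olig2 at 0.09 and Myrf, the regulator of myelin genes, at 0.07 with dim levels of -5.28 in Il18-/- and -5.35 in Il18+/+. Sox2, a gene of progenitor cells, was at 0.26, and Zfp536 and Nkx6-2 were each at 0.19.

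**Figure D4:**
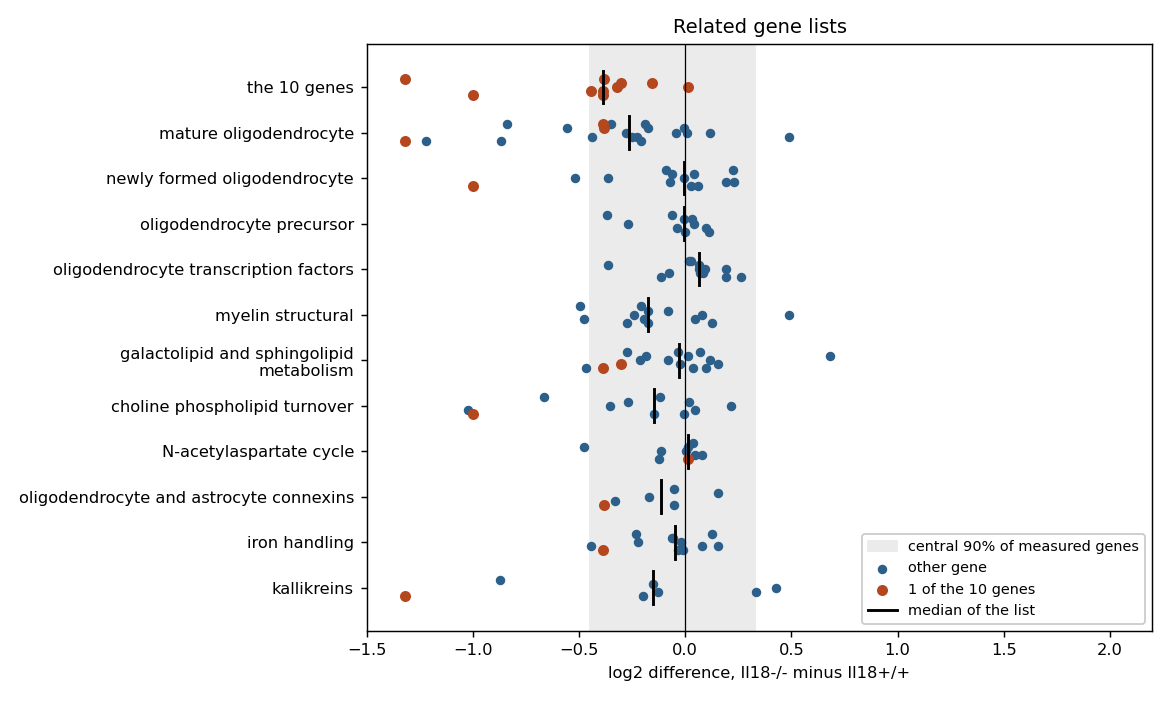
Log2 differences (Il18-/- minus Il18+/+) of the measured genes in the related lists; points are genes, orange those among the 10, black bars the list medians, and the grey band spans the 5th to 95th percentile of all measured genes. The medians of the mature and myelin structural lists, -0.26 and -0.18, lie below 0, and that of the precursor list lies at 0.00.

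The rest of the tissue gave the following background. Il18 itself was at -1.49, with a level of -0.11 in Il18-/- and 1.38 in Il18+/+ by 1 probe whose place relative to the deleted part is not known here. Median differences were 0.00 for 10 astrocyte, -0.05 for 10 microglial, -0.02 for 12 neuronal and -0.02 for 10 endothelial markers, and none of these 42 genes passed 1.5-fold. Of 9 measured medial habenula markers 8 were higher (6 at 2-fold or more) and the median was 1.14. Choroid plexus, liver and habenula markers thus differed between these pools. With 1 pool per genotype, a difference between pools cannot be told apart from one between genotypes. The part of unequal tissue pieces in the oligodendrocyte values was not tested. Signals of spike-in RNA, added in fixed amounts, stood higher in Il18-/-, by 0.30 as the median of 8 probes. Scaling to them lowers each difference by that amount, so that all 10 genes are lower and Aspa is at -0.29, beside a median of -0.29 for all measured genes. Since the same amount is taken from every gene, the median of the 10 genes relative to that of all genes is necessarily -0.40 in either scaling.

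**Figure D5:**
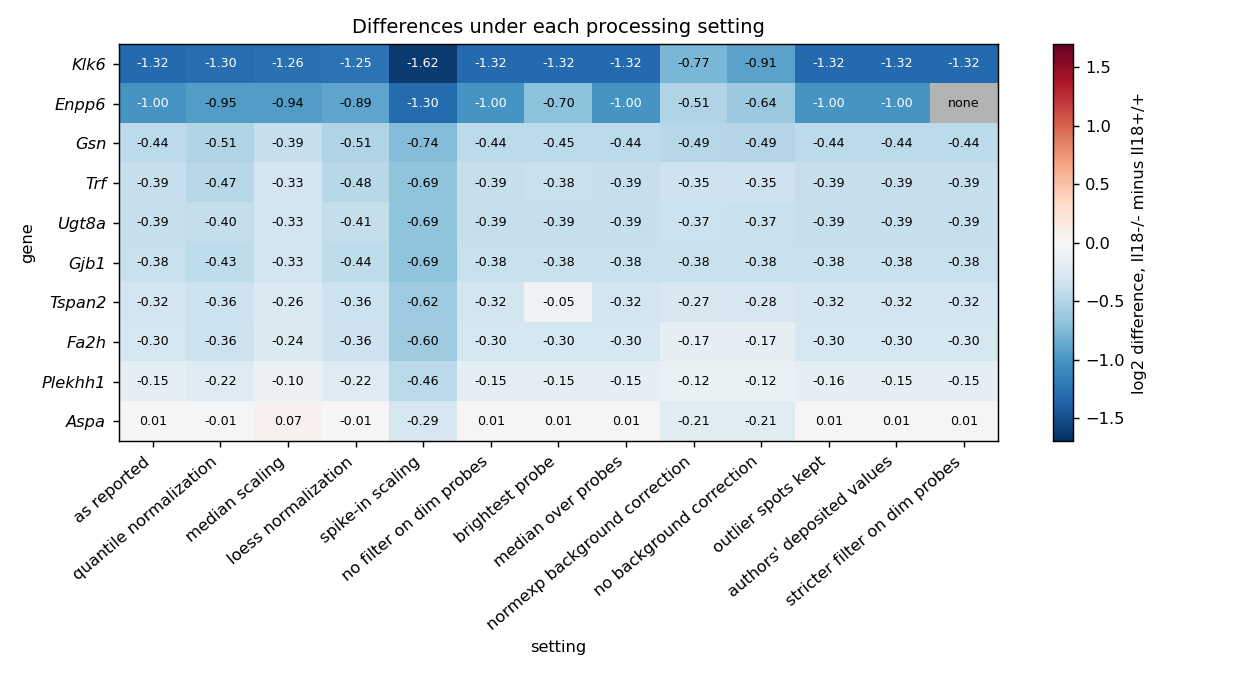
Log2 difference (Il18-/- minus Il18+/+) of each gene (vertical axis) under the reported setting and 12 other settings (horizontal axis); blue is lower and red higher in Il18-/-, and grey means no value. Klk6 stays between -1.62 and -0.77, Enpp6 between -1.30 and -0.51, and Aspa changes sign between settings.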

How the data were processed

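Both arrays were read as deposited. For the intensity values the authors used Agilent Feature Extraction (version 10.10.1.1) as stated per the submitters' processing notes and the file headers. Background subtraction and spatial detrending were done per array, with no scaling across arrays, on a design of genome build mm9. Both arrays share 1 slide and 1 scan. The authors' deposited value table is the same intensity times a fixed factor, 1.92 in the Il18-/- column and 2.05 in the Il18+/+ column (column medians 139.5 and 151.5), on a linear scale, not centred. The basis of these factors is unknown.

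Of 62976 spots 3671 controls were left out, and so were 177 flagged outlier spots in Il18-/- and 124 in Il18+/+. No spot was saturated. Intensities were log2-transformed, less the array's 75th percentile (706.9 in Il18-/-, 692.0 in Il18+/+). Accessions matched to RefSeq genes of GRCm38.p6 named 27235 of 55681 probes with 1 symbol and left 28446 unnamed. A probe was measured when most of its spots were well above background on both arrays (65.4% of probes were so in Il18-/- and 67.2% in Il18+/+), and a gene's value is the mean over its measured probes.

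The members and the 22 other lists were chosen with earlier results of these data known. The text names all members, up to 4 further genes per pathway or stage list with the largest difference, genes that share a reaction or channel with a member, and Il18, and some of these are not reported here. No test was made, with 1 pool per genotype. The calculation was tested on simulated data. Promoter windows are RefSeq's. Alternatives were 4 other scalings, 2 filters, 2 probe summaries, 2 background treatments, kept outlier spots and the deposited table. Both background treatments started from the median pixel signal, and normexp added an offset of 50. R 4.3.3 with limma 3.58.1 and Python 3.11.15 with pandas 2.3.3, numpy 2.4.6 and matplotlib 3.10.9 were used.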

Additional observations from a re-analysis of the deposited data

How the results depend on the processing

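Of the 12 alternatives, 11 left 9 or all 10 genes lower. Among these, the median over probes, the removed filter and the deposited table could not change a member difference and are no check. No member had more than 2 probes, and the removed filter added no probe to a member. The deposited table is the same intensity times a fixed factor per array. Keeping outlier spots is hardly a check either, since no member probe had a flagged outlier spot. The members then moved only through the scaling of the arrays, Klk6 for example from -1.3204 to -1.3206. Spike-in scaling lowers every gene by the same amount, so the count of lower genes could not fall and is no check there. With the stricter filter on dim probes, which leaves Enpp6 without a value, 8 of 9 genes were lower. The count of genes at least 1.5-fold lower, 2 as reported, was 8 under spike-in scaling, 1 under the stricter filter and 1 under normexp background correction. For all genes the share at that size was 11% under spike-in scaling, 1.05% under the stricter filter and 0.667% under normexp. The median difference of the 10 genes was -0.69 under spike-in scaling. Enpp6 was at -1.30 under spike-in scaling, -0.70 by the brightest probe, -0.51 with normexp and -0.64 with no background correction. Klk6 was at -1.62, -0.77 and -0.91 under spike-in scaling, normexp and no background correction. Aspa ranged from -0.29 to 0.07. The kallikrein median was 0.34 under the stricter filter, which drops dim genes, against -0.15 as reported. Among the few kallikreins left this is the value of Klk8 alone, and Klk6 was still at -1.32. Spike-in scaling turned the medians of the transcription factor, tetraspanin and N-acetylaspartate lists to -0.23, -0.26 and -0.29. The median of all measured genes was then -0.29, with 94.1% of them lower, so these lists did not stand below the typical gene. The offset of 50 in normexp by itself shrinks the differences of dim genes. Background left in the signal also shrinks the differences of dim genes. The shift under spike-in scaling is the same for every gene, and the brightest-probe value of Enpp6 is that of 1 probe alone. The cause of the other shifts was not tested. Dim signals limit Enpp6, Klk6 and Klk11. No paired analysis was possible because each genotype had 1 pool.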
